A study of Mus musculus with 11 samples.

Results

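NMuMG is an epithelial line from the normal mammary gland of the NAMRU mouse strain, and its transcripts were set against those of mouse embryonic stem (ES) cells and NIH3T3 fibroblasts. Of 11 libraries of total RNA, 4 are NMuMG: replicates 1 and 3 are parental cultures and replicates 2 and 4 are reporter cultures, which carry a BRE reporter, a reporter gene behind a BMP response element. The ES cells are the E14 line of strain 129/Ola, grown with serum and leukemia inhibitory factor (LIF), with parental replicate 1 and reporter replicates 2 and 4. Replicate 2 is the mean of 2 technical runs of 1 culture. NIH3T3 comes from the NIH/Swiss strain and has 3 replicates, of which replicate 1 is parental; the labels give the other 2 samples as reporter cultures, but their tables could be matched only to the line. NMuMG and NIH3T3 grew in DMEM with 10% serum, fetal bovine for NMuMG and calf for NIH3T3. The labels name no BMP ligand in the media, and both NMuMG reporter cultures carry the same line name. Strain, medium and cell type change together between the lines and cannot be told apart.

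Simple epithelia line ducts, glands and gut with sheets of polarised cells, which are held together by E-cadherin and sealed by tight junctions. Their cytoskeleton is built from pairs of simple keratins, of which KRT8 and KRT18 are the first to appear in the embryo. In the mammary gland such luminal cells sit on a basal, myoepithelial layer that makes KRT5, KRT14 and the transcription factor p63. NMuMG is widely used to study the passage of epithelial cells to a mesenchymal state under TGF-beta, and the BMP pathway is the subject of the series.

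Genes were compared as FPKM, fragment counts divided by transcript length and by the mapped fragments of the library. This level is relative to its library, so between libraries it can also shift with what else each library holds. Differences are on the log2(FPKM + 1) scale, taken as NMuMG minus the other line, so positive numbers mean higher in NMuMG, and they understate the change of genes at low levels. The contrast is NMuMG minus the mean of the ES and NIH3T3 means, fitted with limma over 10 replicates. A gene was called at a Benjamini-Hochberg adjusted p under 0.05 with a difference of at least 1, and stood above or below both lines when it was called in that direction against each of them. Both pairwise differences use the same 4 NMuMG libraries. Summed FPKM lay between 439384 and 461180 in NMuMG, against 429703 to 514980 in ES and 435263 to 452894 in NIH3T3, and read counts are unknown, so precision comes from the spread between replicates. Short RNA genes (Mir and Snor symbols) held 12.3% and 14.3% of the summed FPKM in NMuMG replicates 1 and 2, against 5.48% and 5.66% in replicates 3 and 4, which follows the library series given by the number runs in the table names. Series 1 holds NMuMG replicates 1 and 2 with ES replicates 1 and 2, series 2 holds NMuMG replicates 3 and 4 with ES replicate 4 and NIH3T3 replicate 1, and series 3 holds the other NIH3T3 replicates.

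More genes stood above both other lines in NMuMG than below them. Of 12348 genes tested, 1211 stood above both lines (9.81%) and 349 below both (2.83%). These counts do not ask the same of a gene. A gene made by NMuMG alone can stand above both lines and passes the filter of 1 FPKM in 3 replicates through its own replicates. A gene below both must be present in both other lines. What part of the difference comes from this was not tested. In 1164 of the 1211 (9.43% of the genes tested) every NMuMG replicate lay above every ES and NIH3T3 replicate, and in 303 of the 349 (2.45%) every one lay below. Without regard to calls, every NMuMG replicate was highest in 2107 genes (17.1%) and lowest in 933 (7.56%). The contrast alone called 3929 genes (31.8%), 2281 higher (18.5%) and 1648 lower (13.3%). Against ES, 5649 genes were called (45.7%), 3257 higher in NMuMG (26.4%) and 2392 lower (19.4%). Against NIH3T3, 3085 were called (25%), 1778 higher (14.4%) and 1307 lower (10.6%). The median contrast over all genes tested was 0.06.

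The genes above both lines had a median contrast of 2.27, and 341 of them were under 1 FPKM in every ES and NIH3T3 replicate. They held 14.5% to 18.1% of the summed FPKM in NMuMG, against 1.47% to 1.8% in ES and 2.42% to 3.12% in NIH3T3. Among them, 125 differed by at least 16-fold from each line. Entries of 185 of the 1211 share their locus with another, and 54 hold a listed 0 that is uncertain, with an upper bound above 0. The genes below both lines had a median contrast of -2.18, and 166 of the 349 were under 1 FPKM in every NMuMG replicate. Only 14 of the 349 differed by at least 16-fold from each line, 45 share their locus with another entry and 9 hold such an uncertain 0. Within library series 2, with 1 ES and 1 NIH3T3 replicate, 335 genes stood above and 93 below both lines, and without NMuMG replicate 3 the count below both was 531.

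**Figure D1:**
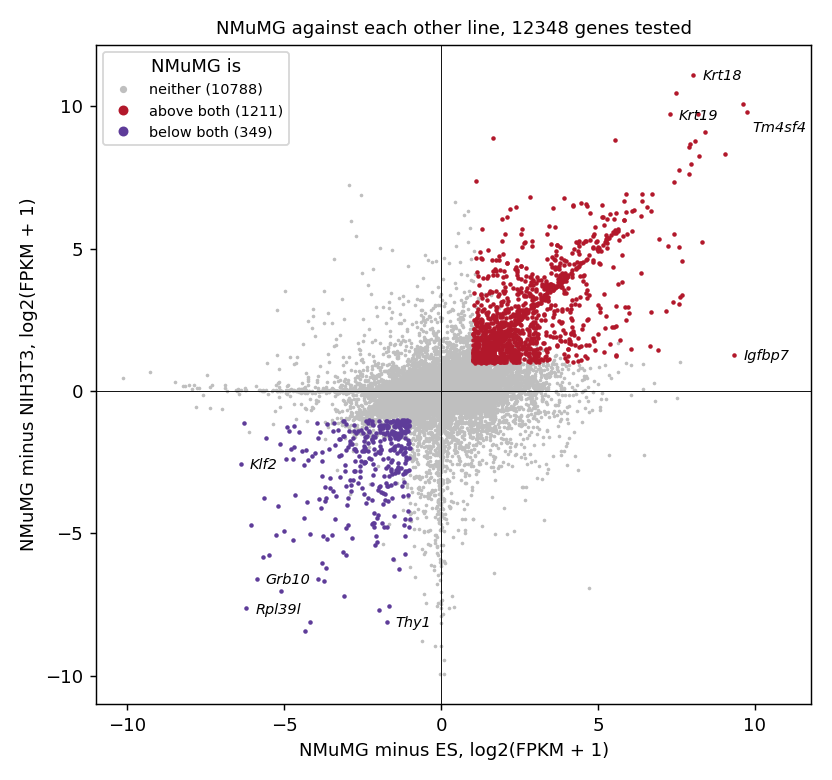
Difference of NMuMG from ES (horizontal) against its difference from NIH3T3 (vertical), both in log2(FPKM + 1), with 1 point per gene tested. The 1211 genes above both lines fill the upper right and reach beyond 9 on both axes (Tm4sf4), while the 349 below both lie in the lower left, and the axes share the 4 NMuMG libraries.

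The simple keratins, which build the cytoskeleton of single-layered epithelia, were among the largest differences. Krt18, a type I keratin, had 2017, 2428, 2474 and 3089 FPKM in NMuMG replicates 1 to 4, against 10.9, 4.35 and 12.2 in ES and 0.386, 0 and 0 in NIH3T3. Krt8, its type II partner, had 1281, 1698, 1392 and 1653 FPKM in NMuMG, against 8.08, 3.76 and 12.1 in ES and 0.192, 0.00622 and 0 in NIH3T3. The 3 lines did not overlap in either gene, and NIH3T3 was at or near 0. The contrast was 9.58 ± 0.25 (SE, log2) for Krt18 (limma, adjusted p = 1.5e-09) and 8.98 ± 0.24 for Krt8 (adjusted p = 1.8e-09). The 2 genes are neighbours on chromosome 15 of mm10, Krt8 at 101996711 to 102004342 and Krt18 at 102028216 to 102032026, and Krt7 (101412403 to 101427806) was the third gene above both lines in a run of neighbouring tested genes there. Krt7, a type II keratin of glandular ducts, had 353, 421, 445 and 707 FPKM in NMuMG, against 1.65, 0.457 and 0.869 in ES and 0.133, 0.166 and 0.420 in NIH3T3. Krt19, a type I keratin of ducts, and Krt20, a type I keratin of gut epithelium, completed the group. Krt19 had a contrast of 8.50 ± 0.17. Krt20 was 5.33 above ES and was listed at 0 in NIH3T3. Of 7 simple keratins listed, 6 passed the filter of 1 FPKM in 3 replicates and 5 stood above both lines, with a median contrast of 8.37 beside 0.06 over all genes tested. Krt23 reached 0.328 FPKM in NMuMG. Genes held by NMuMG alone pass that filter through its 4 replicates, so such counts describe the lists and are no test of them. Over all genes tested, 9.81% stood above both lines and 2.83% below, and list counts are to be read beside these shares. Where a list below is given with 0 genes below both lines by limma, 0 also fell below both at an unadjusted p under 0.05, except for 1 gene of the serine protease list.

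The mammary label was checked against the gland's own markers, and most of its defining genes were at or near 0. Of 24 luminal genes listed, 11 were tested (median contrast 4.05) and 7 stood above both lines: Krt8, Krt18, Krt19, Foxa1, Cd24a, Areg and Muc1. The 13 that were not tested stayed under 1 FPKM in every NMuMG replicate, among them the hormone receptors Esr1 (highest NMuMG value 0.237 FPKM), Pgr (listed at 0 in all 4) and Prlr (0.00331), the luminal regulators Gata3 (0.936) and Elf5 (0.0423), and the milk protein genes Csn2, Wap and Lalba, listed at 0 in all 4. Epcam, an adhesion protein of most simple epithelia, had 7.57, 2.10, 4.20 and 4.72 FPKM in NMuMG, against 77.7, 69.4 and 62.8 in ES and 0, 0.0107 and 0 in NIH3T3, so that the line stood between the others. Of 15 basal and myoepithelial genes, 8 were tested (median contrast -1.19) and 0 stood above or below both lines by limma, with 1 above both at an unadjusted p under 0.05. Krt5, Krt14 and Trp63, which encodes p63, reached at most 0.174, 0.0373 and 0.0236 FPKM in any NMuMG replicate. NMuMG thus held simple keratins and E-cadherin, while milk protein and hormone receptor genes and Krt5, Krt14 and Trp63 were at or near 0 in these 4 libraries. Other basal list members were present: 6 of the 15 reached 1 FPKM in an NMuMG replicate, and the list summed to 14.9 to 34.4 FPKM in NMuMG, against 16.7 to 63.4 in ES and 84.6 to 799 in NIH3T3. Mylk, a kinase of smooth muscle contraction, had 5.73, 6.396, 7.22 and 11.1 FPKM in NMuMG, against 0.0149, 0.0403 and 0.0806 in ES and 1.28, 0.985 and 8.39 in NIH3T3, and was called higher by the contrast and against ES.

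Many genes best known from endoderm, the tissue that forms gut and liver, were high, in a list drawn up after these values were seen. Of its 52 genes, 32 were tested, 25 stood above both lines and 0 below, with a median contrast of 5.07. Hnf4a, a nuclear receptor that directs liver and gut epithelium, had 68.5, 71.6, 78.2 and 92.4 FPKM in NMuMG, against 0.519, 0.360 and 0.109 in ES and 0.0147, 0 and 0 in NIH3T3, and a contrast of 6.09 ± 0.14 (limma, adjusted p = 7.9e-10). Foxa2, a pioneer factor of endoderm, had 41.0, 34.2, 44.5 and 35.4 FPKM in NMuMG, against 1.22, 0.160 and 0.673 in ES and 0.0478, 0 and 0 in NIH3T3. Neither factor overlapped between NMuMG and another line. Cdx2, the homeobox factor of intestine, had 6.99, 12.6, 18.1 and 15.3 FPKM in NMuMG, against 0.273, 0.0832 and 0.334 in ES, and was listed at 0 in NIH3T3. The GATA factor Gata6 and the homeobox factor Onecut2 had contrasts of 3.09 ± 0.25 and 3.68 ± 0.15. Some products of gut and liver cells went with these regulators. Cdh17, the liver-intestine cadherin, had 45.2, 67.0, 118 and 148 FPKM in NMuMG, against 0.0349, 0.0278 and 0.0397 in ES and 0.0845, 0.247 and 0.318 in NIH3T3. Apob, the protein scaffold of lipoproteins, had 56.8, 52.7, 34.9 and 23.7 FPKM in NMuMG and at most 0.146 FPKM in another replicate. Afp, the fetal serum protein of yolk sac and liver, was lower, at 2.55, 5.59, 4.50 and 5.32 FPKM in NMuMG and at most 0.0651 elsewhere. Vil1, which bundles actin in microvilli, had 53.2, 57.8, 30.5 and 49.9 FPKM in NMuMG, with zeros listed for ES and NIH3T3 that are uncertain because its entry shares its locus with another. The other 20 genes of the list did not pass the filter, and the highest value among them in NMuMG was 4.54 FPKM. They include the gut secretory mucin Muc2, the brush border enzymes Sis, Lct and Alpi and the lipid carriers Fabp1 and Fabp2. Also among them are the liver or gut genes Alb, Apoa1, Apoa2, Apoa4, Apoh and Cps1. The factors Sox17, Pdx1, Prox1, Cdx1 and Hnf4g did not pass either. Fabp2 reached 0.223 FPKM in NMuMG, and Sis and Alpi were listed at 0 in all 4 replicates.

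**Figure D2:**
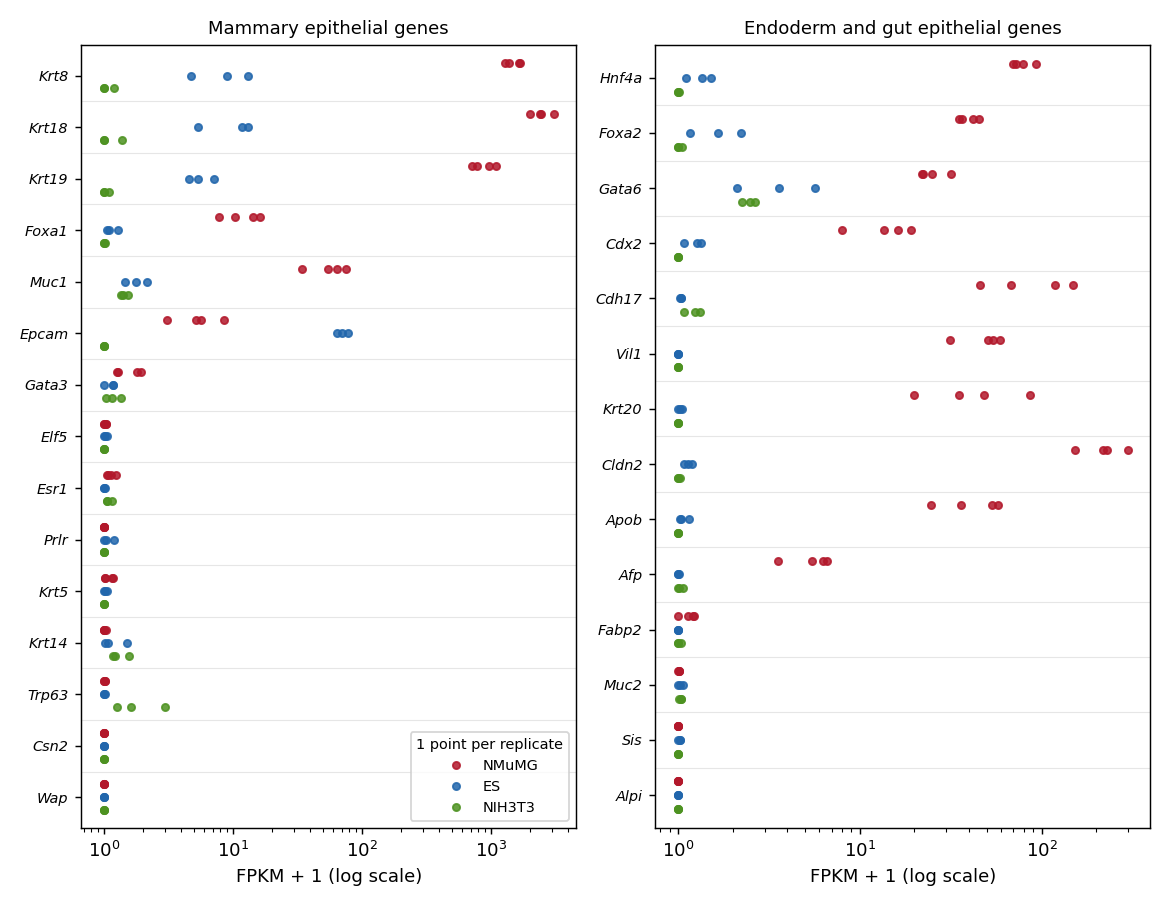
FPKM + 1 on a log scale for 15 mammary epithelial genes (left) and 14 endoderm or gut genes (right), with 1 point per replicate of NMuMG, ES and NIH3T3. Simple keratins, Foxa1 and Muc1 were high in NMuMG, whereas Elf5, Esr1, Prlr, Krt5, Krt14, Trp63, Csn2 and Wap lay at or near 0. Hnf4a to Afp stood above both lines in NMuMG, Afp at a low level, and Fabp2, Muc2, Sis and Alpi did not pass the filter.

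Genes of cell junctions were often above both lines. Of 25 tight junction genes, 16 were tested and 9 stood above both lines against 0 below, with a median contrast of 2.08 beside 0.06 over all genes tested. Cldn2, a claudin that forms cation pores, had 216, 228, 151 and 298 FPKM in NMuMG, against 0.132, 0.195 and 0.0790 in ES and 0.0214, 0 and 0 in NIH3T3 (contrast 7.67 ± 0.17, limma, adjusted p = 7.9e-10). Other claudins of simple epithelia were missing. Cldn4 had at most 0.303 FPKM in NMuMG, against 27.9, 13.8 and 25.0 in ES. Cldn7 was listed at 0 in every NMuMG replicate and had 9.73, 7.83 and 10.3 FPKM in ES. F11r, the junctional adhesion molecule A, had 98.1, 83.1, 74.2 and 95.5 FPKM in NMuMG, against 30.4, 14.6 and 13.2 in ES and 0.108, 0 and 0 in NIH3T3. Cdh1, which encodes E-cadherin, had 195, 150.3, 158 and 186 FPKM in NMuMG, against 88.9, 73.4 and 74.6 in ES and 0.0653, 0.00471 and 0.0520 in NIH3T3, so it was 1.11 above ES and 7.37 above NIH3T3 on the log2 scale. The mesenchymal cadherin Cdh2 and the filament protein Vim were present as well. Cdh2 had 29.1, 22.8, 25.8 and 17.2 FPKM in NMuMG, against 2.04, 0.269 and 0.276 in ES and 15.1, 16.5 and 12.4 in NIH3T3. It was 3.84 above ES and did not differ by a called amount from NIH3T3 (0.64, adjusted p = 0.13), and Vim, at 397, 490.4, 680.5 and 720.3 FPKM in NMuMG, differed by 3.26 from ES and by -1.87 from NIH3T3.

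Of 21 adherens junction and desmosome genes, 17 were tested (median contrast 1.60) and 7 stood above both lines, against 0 below. Ppl, the cytolinker periplakin, had 34.1, 42.5, 40.5 and 36.1 FPKM in NMuMG, against 0.804, 0.733 and 0.616 in ES and 0.0251, 0.0228 and 0.159 in NIH3T3 (contrast 4.86 ± 0.12, limma, adjusted p = 1.2e-09). Dsp, the desmosome's anchor to keratin filaments, had 41.1, 35.5, 28.5 and 27.0 FPKM in NMuMG, against 1.52, 0.994 and 1.76 in ES, and was listed at 0 in NIH3T3. The desmosomal protein Perp was 2.10 above ES and 6.11 above NIH3T3. Of 18 genes for hemidesmosome integrins and epithelial laminins, 15 were tested (median contrast 1.16). Among these, 7 were above both lines and 1, the basement membrane linker Nid1, was below both. The shares were 46.7% and 6.67%, beside 9.81% and 2.83% over all genes tested. Nid1 had 0.0938, 0.167, 0.444 and 0.0911 FPKM in NMuMG, against 11.7, 18.4 and 15.4 in ES and 52.98, 245 and 129.8 in NIH3T3. Itga3, an integrin subunit that binds laminin, had 90.1, 99.4, 152 and 129 FPKM in NMuMG, against 8.57, 5.58 and 6.09 in ES and 15.9, 8.70 and 4.86 in NIH3T3. Itgb4, the hemidesmosome integrin subunit, had 31.5, 48.6, 42.9 and 86.4 FPKM in NMuMG, and the zeros listed for both other lines are uncertain because its entry shares its locus with another. Lamb3, a chain of the epithelial laminin-332, had a contrast of 3.93 ± 0.27, while Lama3, its partner chain, did not pass the filter.

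Among 27 epithelial transcription and splicing factors, 21 were tested (median contrast 1.26), 6 stood above both lines and 1, the GATA-type repressor Trps1, below. The shares were 28.6% and 4.76%, beside 9.81% and 2.83% over all genes tested. Ehf, an ETS factor of glandular epithelium, had 68.3, 64.1, 26.3 and 32.2 FPKM in NMuMG, against 0.0271, 0.0302 and 0.0926 in ES, and was listed at 0 in NIH3T3. Foxa1, a pioneer factor shared by luminal mammary and endoderm cells, had 15.4, 13.4, 9.37 and 6.89 FPKM in NMuMG, against 0.279, 0.0542 and 0.108 in ES and 0.0308, 0 and 0 in NIH3T3. The paralogous splicing factors Esrp1 and Esrp2 parted: Esrp2 had 12.8, 10.6, 14.01 and 14.9 FPKM in NMuMG, against 5.26, 1.95 and 1.51 in ES and 0.0124, 0.0121 and 0.00808 in NIH3T3. Esrp1 reached at most 0.0333 FPKM in NMuMG, against 15.7, 3.88 and 6.85 in ES and 0 in each NIH3T3 replicate. Grhl2, a grainyhead factor that maintains epithelial genes, was likewise at most 0.0187 FPKM in NMuMG, against 14.7, 3.42 and 4.42 in ES. Among 16 mesenchymal factors, 14 were tested (median contrast -1.20), and Twist1 alone was below both lines, at 0.0855, 0, 0.0472 and 0.0417 FPKM in NMuMG, against 1.60, 0.785 and 1.71 in ES and 59.9, 41.7 and 65.8 in NIH3T3. Zeb1, a repressor of E-cadherin, stood between the lines at 6.55, 5.79, 5.26 and 5.46 FPKM in NMuMG, against 1.15, 1.92 and 1.31 in ES and 20.1, 11.4 and 11.5 in NIH3T3. Foxd1, a forkhead factor of kidney stroma, was the 1 mesenchymal list member above both lines (contrast 2.57 ± 0.14). Twist1 and Foxd1 were each 7.14% of the mesenchymal factors tested, beside 2.83% below and 9.81% above over all genes tested.

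**Figure D3:**
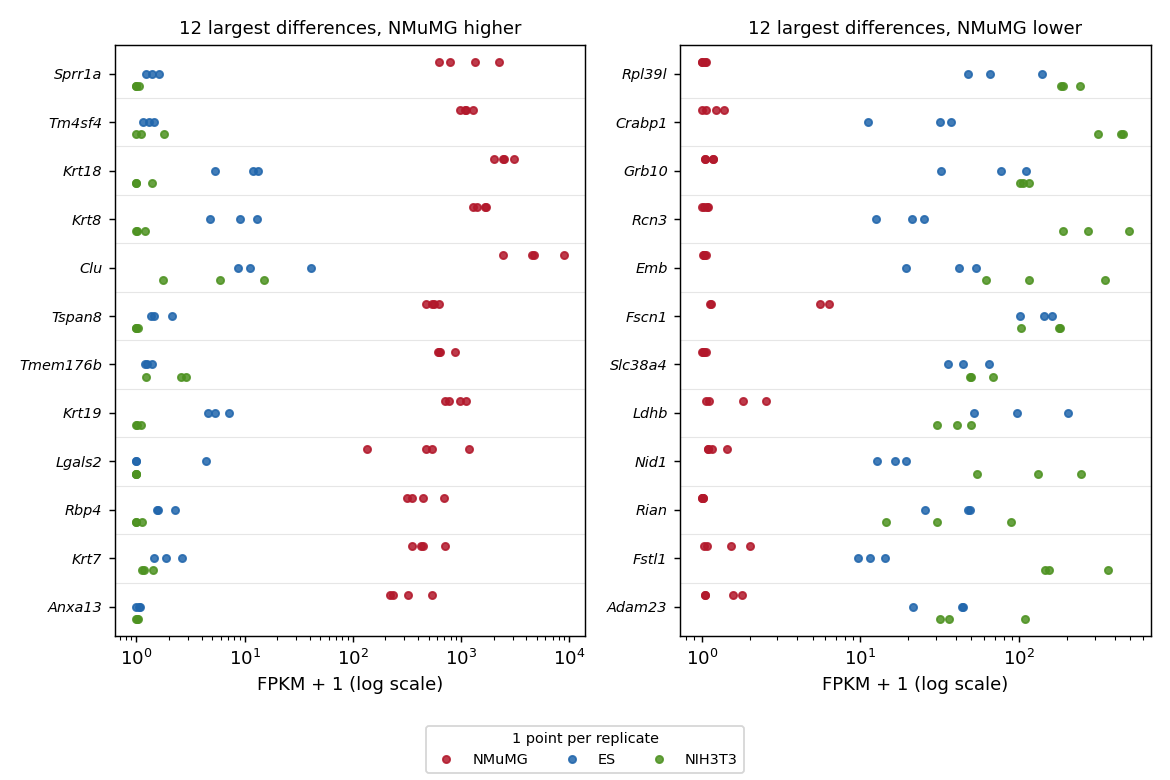
FPKM + 1 on a log scale for the 12 genes above both lines (left) and the 12 below both (right) with the largest contrast among genes without overlap, with 1 point per replicate. On the left every NMuMG point lies far to the right of the ES and NIH3T3 points, and on the right NMuMG points lie near the left edge, apart from Fscn1, whose parental replicates 1 and 3 are at 5.37 and 4.58 FPKM.

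Sprr1a had the largest contrast of all genes tested, 9.85 ± 0.31 (limma, adjusted p = 4.0e-09). This small proline-rich protein is crosslinked into the cornified envelope of stratified epithelium and also appears in stressed or regenerating cells. It had 1345, 2216, 786 and 619.7 FPKM in NMuMG, against 0.390, 0.618 and 0.224 in ES and 0.0529, 0 and 0 in NIH3T3. Its neighbour Ivl, the envelope protein involucrin, was far lower at 1.77, 2.21, 2.41 and 2.23 FPKM in NMuMG, and both other lines were listed at 0. Of 19 cornified envelope genes, 6 were tested (median contrast 1.66) and 4 stood above both lines, the others being Sprr2a1 and Sprr2a2, near-identical copies that may share reads. The count above both lines was 2 when NMuMG replicate 4 was left out, and 2 when the library series was a term. Loricrin (Lor) and the late envelope genes Lce1a1 and Lce1m did not pass the filter. Both promoters are shown because these neighbours on chromosome 3 stood above both lines together and each holds the AP-1 word TGANTCA, which reads alike on both strands, and a TATAAA on the gene's strand. They run 250 bases before to 50 after the start (RefSeq, GRCm38.p6, chr3:92485832-92486131 for Sprr1a and chr3:92573686-92573985 for Ivl, both on the minus strand), with both words in capitals:
Sprr1a: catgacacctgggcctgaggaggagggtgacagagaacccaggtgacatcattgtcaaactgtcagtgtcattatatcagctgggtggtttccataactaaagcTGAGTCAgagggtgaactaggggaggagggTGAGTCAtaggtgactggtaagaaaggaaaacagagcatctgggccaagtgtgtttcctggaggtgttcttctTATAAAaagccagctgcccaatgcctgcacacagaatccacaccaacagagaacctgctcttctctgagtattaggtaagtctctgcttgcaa
Ivl: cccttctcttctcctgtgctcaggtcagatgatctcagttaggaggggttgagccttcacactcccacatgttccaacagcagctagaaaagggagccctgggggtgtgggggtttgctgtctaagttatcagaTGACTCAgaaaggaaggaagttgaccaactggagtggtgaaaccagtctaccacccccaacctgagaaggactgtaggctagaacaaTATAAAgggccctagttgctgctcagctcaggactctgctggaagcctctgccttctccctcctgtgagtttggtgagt
The Sprr1a promoter held TGANTCA at 146 and 116 bases before the start and TATAAA at 43 before it, and Ivl held them at 116 and 29. Of 27025 promoters of this length, 7.93% held TGANTCA and 8.88% TATAAA. Among the 88 of 114 named genes with a promoter in the table, 5 held TGANTCA and 12 TATAAA. Sprr2a1 and Sprr2a2 were not among the holders of either word, so the promoters shown do not stand for their neighbours. Binding was not measured.

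Membrane proteins of the tetraspanin and TM4SF families, which organise receptors and integrins in the plasma membrane, were the next group. Of 24 listed, 22 were tested (median contrast 1.72), 12 stood above both lines and 0 below. Tm4sf4, a TM4SF protein of liver and intestine, had 978, 1119, 1096 and 1281 FPKM in NMuMG, against 0.159, 0.469 and 0.299 in ES and 0.798, 0.0920 and 0 in NIH3T3. The contrast of 9.77 ± 0.18 was the second largest of all, and the 4 NMuMG replicates lay close together. Tspan8, a tetraspanin of gut epithelium, had 477, 564, 537 and 628 FPKM in NMuMG, against 1.13, 0.370 and 0.442 in ES and 0.0261, 0 and 0 in NIH3T3. The neighbouring genes Tmem176b and Tmem176a had contrasts of 8.69 ± 0.24 and 7.77 ± 0.17. Both encode membrane proteins counted in this list, and therefore among the 12, but they belong to neither family. Cd82, a tetraspanin that restrains cell movement, had 48.7, 53.3, 31.0 and 44.0 FPKM in NMuMG, against 0.439, 0.0907 and 0.616 in ES and 0.960, 0.376 and 1.87 in NIH3T3. Of 24 S100 proteins and annexins, which bind calcium and membranes, 20 were tested (median contrast 2.10) and 10 stood above both lines. The count was 10 with the library series as a term and ranged from 7 to 11 when 1 replicate was left out. The 7 came without NMuMG replicate 4, and S100g kept its call in only 8 of 23 alternatives. Anxa3 had 514, 526, 500.4 and 680.0 FPKM in NMuMG, against 2.37, 0.855 and 2.47 in ES and 50.9, 67.3 and 47.4 in NIH3T3, and S100a1 had a contrast of 5.80 ± 0.39. Anxa13, an annexin of gut epithelium, had 221, 323, 234 and 541 FPKM in NMuMG and at most 0.0698 elsewhere.

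Several secreted proteins were abundant. Clu, the extracellular chaperone clusterin, had 8885, 4679, 2437 and 4505 FPKM in NMuMG, against 10.3, 7.61 and 39.7 in ES and 14.04, 0.745 and 4.93 in NIH3T3, and a contrast of 8.97 ± 0.63 (limma, adjusted p = 1.1e-06). Its NMuMG replicates spread widely, and the lowest was still far above every ES and NIH3T3 value. Spp1, the secreted phosphoprotein osteopontin, had 3675, 1933, 1685 and 3265 FPKM in NMuMG, against 125, 195 and 138 in ES and 1749.7, 1044 and 676 in NIH3T3. Here NIH3T3 replicate 1 overlapped the NMuMG range, and the call against both lines was lost with the library series as a term and when NMuMG replicate 1 or 4 or NIH3T3 replicate 2 or 3 was left out. Rbp4, the blood carrier of retinol, had 352, 318, 441 and 695 FPKM in NMuMG, against 0.576, 0.543 and 1.26 in ES and 0.128, 0 and 0 in NIH3T3. Of 22 serine proteases and inhibitors, 17 were tested (median contrast 2.04) and 8 stood above both lines, against 0 below. Wfdc2, a protease inhibitor of epithelial secretions, had 284, 311, 546 and 832 FPKM in NMuMG, against 7.11, 7.19 and 12.1 in ES, and was listed at 0 in NIH3T3. Tmprss2, a membrane serine protease, had 17.3, 20.2, 7.63 and 14.9 FPKM in NMuMG and at most 0.205 elsewhere. Of 22 genes for mucins and their sugar chains, 11 were tested (median contrast 1.65) and 6 stood above both lines, among them the membrane mucin Muc1 (33.2, 53.4, 62.8 and 74.5 FPKM in NMuMG and at most 1.15 elsewhere). Of 23 genes for epithelial transport of ions, water and solutes, 16 were tested (median contrast 1.49), and 6 stood above both lines, among them the zinc carrier Slc39a4 (contrast 4.99 ± 0.15). Lgals2, a galectin of gut, had 133, 470.2, 533 and 1177 FPKM in NMuMG and was listed at no more than 3.44 elsewhere. Its zeros there are uncertain because its entry shares its locus with another.

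Growth factor genes of the epidermal growth factor (EGF) family were higher in NMuMG, as was their receptor. Of 13 listed, 9 were tested (median contrast 1.97), 5 stood above both lines and 0 below. Areg, the ligand amphiregulin, had 22.2, 47.3, 99.3 and 126 FPKM in NMuMG, against 0, 0.0179 and 0 in ES and 0.0928, 0.924 and 0.111 in NIH3T3. Tgfa had 12.9, 17.6, 21.5 and 36.6 FPKM in NMuMG, against 0.545, 0.304 and 0.441 in ES, and was listed at 0 in NIH3T3. Btc, or betacellulin, had a contrast of 2.92 ± 0.27. The receptor Egfr had 11.75, 11.6, 21.5 and 11.3 FPKM in NMuMG, against 0.520, 0.320 and 0.258 in ES and 1.05, 0.0241 and 0.549 in NIH3T3, with no overlap. Of 28 Wnt ligands and secreted inhibitors, 10 were tested (median contrast -1.25). The ligands Wnt4, Wnt7a and Wnt7b stood above both lines, and the inhibitors Sfrp1 and Sfrp2 below both. Of those tested, that is 30% above and 20% below, beside 9.81% and 2.83% over all genes tested. Wnt7b had 45.8, 66.4, 69.3 and 106 FPKM in NMuMG, against 2.33, 0.142 and 1.02 in ES, and was listed at 0 in NIH3T3, while Sfrp2 was at most 0.0187 FPKM in NMuMG, against 11.7, 6.49 and 3.17 in ES and 14.6, 4.78 and 9.68 in NIH3T3. Adding the library series as a term ended the Sfrp1 call. Of 15 genes of the IGF system, 13 were tested (median contrast 0.10) and 2 stood above both lines (15.4%, beside 9.81% over all genes tested). Igfbp3 and Igfbp7, which bind insulin-like growth factors, stood above both lines, Igfbp7 at 699, 570.2, 667 and 676 FPKM in NMuMG and 190.0, 294 and 346 in NIH3T3 and listed at 0 in ES, where its zeros are uncertain.

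In the BMP pathway, the subject of the series, no receptor stood above or below both lines, and ligands and genes below the receptors did so at shares near those of all genes tested. Of 14 BMP and TGF-beta receptors, 11 were tested (median contrast 0.38) and 0 stood above or below both lines by limma, with 3 above both and 0 below at an unadjusted p under 0.05. Acvr1, a type I receptor, had a contrast of 1.19 ± 0.14 (adjusted p = 5.8e-05) that came from ES alone: it was 2.29 against ES and 0.09 against NIH3T3 (adjusted p = 0.74). With quantile normalization the contrast was 0.99 and was no longer called. Bmpr1a had 18.6, 15.1, 17.0 and 13.97 FPKM in NMuMG, against 11.1, 13.8 and 10.9 in ES and 18.2, 15.4 and 21.3 in NIH3T3, so that NMuMG overlapped NIH3T3. The contrasts of the type II receptors Bmpr2, Acvr2a and Acvr2b were 0.47 ± 0.15, 0.58 ± 0.13 and -0.80 ± 0.16, none called. Below the receptors, 17 of 20 genes were tested (median contrast 0.35), 2 stood above both lines (11.76%, beside 9.81% over all genes tested) and 1 below (5.88%, beside 2.83%). Id2, an inhibitor of helix-loop-helix factors that BMPs induce, had 429, 376, 442 and 342 FPKM in NMuMG, against 24.0, 12.2 and 10.8 in ES and 25.1, 48.1 and 54.1 in NIH3T3 (contrast 3.96 ± 0.26, adjusted p = 6.4e-07). The homeobox target Msx1 had 3.58, 3.85, 5.73 and 4.27 FPKM in NMuMG, against 0.658, 0.0731 and 0.338 in ES, and was listed at 0 in NIH3T3. Id4 ran the other way, at most 0.0279 FPKM in NMuMG, against 1.22, 0.619 and 2.67 in ES and 2.61, 8.15 and 12.1 in NIH3T3, and lost its call without ES replicate 4. Of 36 ligands and antagonists, 25 were tested (median contrast 0.17), 2 stood above both lines (8%) and 1 below (4%). Gdf15, a stress-induced GDF, had 89.2, 121, 77.8 and 122 FPKM in NMuMG, against 1.47, 3.54 and 1.18 in ES and 0.280, 0.0569 and 0 in NIH3T3. Fstl1, a secreted glycoprotein of the follistatin family, was below both lines at 1.01, 0.0318, 0.522 and 0.0783 FPKM in NMuMG, against 10.4, 13.2 and 8.59 in ES and 143, 154 and 364 in NIH3T3.

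**Figure D4:**
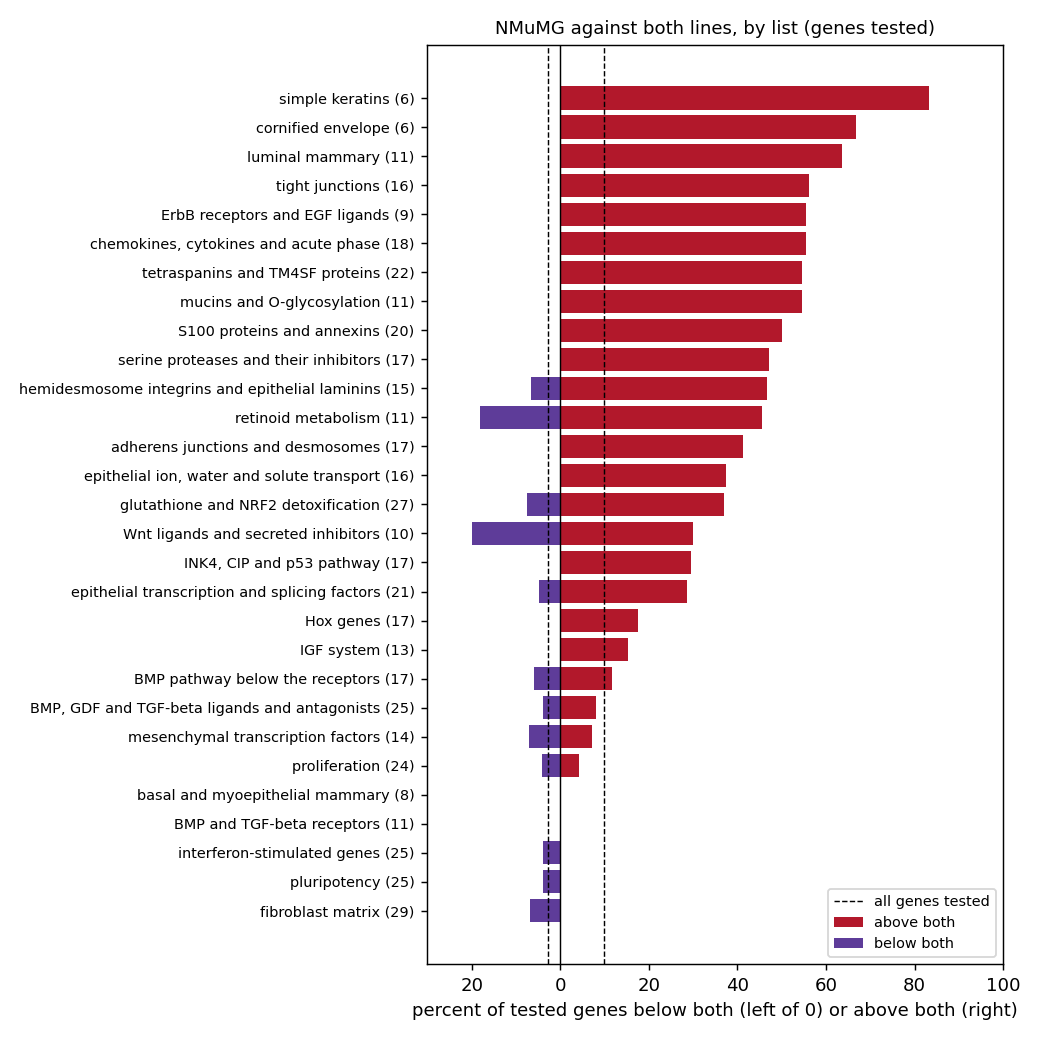
Percent of the tested genes of each list that stood above both lines (right of 0) or below both (left of 0), for lists with at least 5 genes tested, whose number is in parentheses. Dashed lines give the shares over all genes tested, 9.81% above and 2.83% below; the keratin, junction and secretory lists lie to the right of the first line and the pluripotency and fibroblast matrix lists hold no gene above both lines.

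The inhibitors Cdkn1a, Cdkn2a and Cdkn2b, which block cyclin-dependent kinases, stood above both lines. Of 17 genes of the INK4, CIP and p53 group, all tested (median contrast 0.83), 5 stood above both lines, 0 below and 12 neither. The share above both was 29.4%, beside 9.81% over all genes tested. The other 2 above both, Ccng1 and Perp, are p53 targets, and the inhibitors Cdkn1b, Cdkn1c, Cdkn2c and Cdkn2d were neither. Cdkn2a, the locus of INK4A and ARF, had 35.9, 42.4, 57.2 and 92.6 FPKM in NMuMG, against 5.35, 2.12 and 3.12 in ES, and was listed at 0 in NIH3T3. Its neighbour Cdkn2b had 41.3, 58.5, 57.0 and 129 FPKM in NMuMG, against 1.34, 0.258 and 0.601 in ES and 0.0259, 0 and 0 in NIH3T3. Cdkn1a, the p53 target p21, had a contrast of 3.11 ± 0.30. Of 24 proliferation genes, all tested (median contrast -1.72), Ccnd1, or cyclin D1, stood above both lines (183, 384, 414 and 719 FPKM in NMuMG, against 46.8, 37.8 and 38.5 in ES and 68.8, 69.6 and 17.6 in NIH3T3) and Ccne1, or cyclin E1, below both. Each of the 2 was 4.17% of the list, beside 9.81% above and 2.83% below over all genes tested. The Ccne1 call was lost with the library series as a term and when NMuMG replicate 4 or NIH3T3 replicate 1 or 2 was left out. NMuMG replicates differed widely among themselves in this list: the mean log2 level was 3.98, 4.47, 5.57 and 2.35 in replicates 1 to 4, and the division marker Mki67 had 10.3, 16.8, 31.6 and 0.955 FPKM. Without replicate 3, 17 of the 24 genes stood below both lines, against 1 with all replicates. In bulk RNA, fewer dividing cells and less transcript per cell cannot be told apart.

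Detoxifying enzymes made another group. Of 27 glutathione and NRF2 genes, all tested (median contrast 1.11), 10 stood above both lines and 2 below. The shares were 37.0% and 7.41%, beside 9.81% and 2.83% over all genes tested. Gclc, which catalyses the first step of glutathione synthesis, had 144, 221, 171 and 199 FPKM in NMuMG, against 14.8, 19.3 and 31.5 in ES and 13.03, 15.1 and 5.54 in NIH3T3 (contrast 3.54 ± 0.28, limma, adjusted p = 2.8e-06). Gsta1, a glutathione transferase gene that may share reads with its near copy Gsta2, had 33.4, 45.6, 35.2 and 39.8 FPKM in NMuMG and at most 0.669 elsewhere. Mgst1, a membrane-bound transferase, had 149.7, 134, 64.5 and 106 FPKM in NMuMG, against 1.8, 2.54 and 1.502 in ES and 20.7, 17.8 and 30.5 in NIH3T3. Gsto1, an omega-class transferase, was among the most abundant genes above both lines at 582, 873, 1081 and 1967 FPKM in NMuMG, but its call was lost with the library series as a term and without NIH3T3 replicate 3. Nqo1, a quinone reductase and common NRF2 target, ran against the group. It had 0.784, 0.832, 0.925 and 0.706 FPKM in NMuMG, against 7.85, 17.5 and 18.0 in ES and 27.0, 69.5 and 11.1 in NIH3T3, a contrast of -3.50 ± 0.42. Of 15 retinoid genes, 11 were tested (median contrast 1.22), 5 stood above both lines (45.5%) and 2 below (18.2%). Rdh10, which oxidises retinol to retinal, had 162, 289.7, 86.0 and 132 FPKM in NMuMG, against 2.65, 0.948 and 2.09 in ES and 3.68, 17.4 and 12.98 in NIH3T3. Aldh1a1, which turns retinal into retinoic acid, had a contrast of 5.27 ± 0.46. The retinoic acid carrier Crabp1 was the reverse, with 0, 0.0676, 0.381 and 0.224 FPKM in NMuMG, against 10.2, 30.7 and 36.0 in ES and 452, 313 and 436 in NIH3T3. The receptor Rarg was lower too (contrast -2.22 ± 0.25).

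Genes of inflammation and barrier defence were high as well. Of 27 listed, 18 were tested (median contrast 2.90), 10 stood above both lines and 0 below, and the count above both was 7 when the library series was a term. The chemokine Cxcl5 had 118, 66.8, 118 and 71.4 FPKM in NMuMG, against 0.131, 0.0876 and 0.112 in ES and 10.6, 3.87 and 1.43 in NIH3T3. The complement protein Cfb had 52.4, 37.8, 52.1 and 45.0 FPKM in NMuMG, against 0.149, 0.340 and 0.267 in ES and 0.120, 0.301 and 0.295 in NIH3T3 (contrast 5.25 ± 0.14, limma, adjusted p = 1.5e-09). Ccl20, a chemokine of mucosal epithelium, had 26.9, 13.6, 28.4 and 12.4 FPKM in NMuMG, with both reporter replicates below both parental ones, and at most 0.0638 elsewhere. Cd14, a receptor for bacterial lipopolysaccharide also made by epithelia, had 249, 228, 233 and 175 FPKM in NMuMG, against 0.147, 0.195 and 0.100 in ES and 12.2, 5.59 and 2.35 in NIH3T3. Of the 9 leukocyte genes in the tables, 7 stayed under 1 FPKM in every NMuMG replicate, Ptprc, which encodes CD45, at most 0.189 FPKM, and Cd14 made up most of the list's summed level (180.8 to 254 FPKM in NMuMG, against 7.73 to 11.2 in ES and 4.84 to 14.5 in NIH3T3). Of 32 interferon-stimulated genes listed, 25 were tested (median contrast 0.71), and the contrast called 6 higher and 2 lower. Another 6, Ifit1, Oasl2, Mx1, Mx2, Rsad2 and Gbp3, did not pass the filter, although the highest value among them in NMuMG was 66.2 FPKM. Of those tested, 0 stood above both lines and 1 below. The shares were 0% beside 9.81% over all genes tested, and 4% beside 2.83%. The gene below was Ifitm3, whose NMuMG values of 3.50, 0, 146 and 0.272 FPKM overlapped ES. Its call was lost with the library series as a term and when NMuMG replicate 1, 2 or 4 or any ES replicate was left out.

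Most markers of the other lines were low in NMuMG, with exceptions in both lists. Of 25 pluripotency genes, 20 were under 1 FPKM in every NMuMG replicate, with Pou5f1, Nanog and Sox2 at most 1.35, 0.126 and 0.379 FPKM, and the list summed to 182.3 to 237 FPKM in NMuMG, against 6161 to 7331 in ES and 137.8 to 209 in NIH3T3. Klf2 was the 1 list member below both lines (4% of those tested, beside 2.83% over all genes tested). Tfcp2l1, a pluripotency factor also made by kidney and gland ducts, was the 1 with a higher contrast. It had 37.8, 46.3, 6.53 and 3.96 FPKM in NMuMG, against 9.96, 30.2 and 39.7 in ES and 0.0269, 0.00546 and 0.0230 in NIH3T3. Of 30 fibroblast matrix genes, 20 were under 1 FPKM in every NMuMG replicate, Col1a1, Col1a2 and Col3a1 reaching 0.652, 0.407 and 0.0883 FPKM, and the list summed to 1210.4 to 1463 FPKM in NMuMG, against 146.0 to 183.9 in ES and 10420 to 21976 in NIH3T3. Thy1 and Mmp2 were its members below both lines (6.9% of those tested, beside 2.83% over all genes tested). The other 10 members reached 1 FPKM in NMuMG, and 3 of the list, Fbln2, Timp2 and Loxl2, had a higher contrast. Fbln2, an extracellular matrix fibulin, had 339, 262, 245 and 236 FPKM in NMuMG, against 0.238, 0.536 and 0.633 in ES and 288, 394 and 290.4 in NIH3T3. Timp2, an inhibitor of metalloproteinases, had 277, 275, 203 and 317 FPKM in NMuMG, against 1.33, 0.906 and 2.00 in ES and 301, 251 and 492 in NIH3T3. Both lay far above ES and overlapped NIH3T3. The 9 endothelial genes were all under 1 FPKM in NMuMG. Among adipocyte genes, Pparg, a nuclear receptor also made by epithelia, stood above both lines at 7.84, 5.88, 8.91 and 7.79 FPKM in NMuMG and at most 0.0636 elsewhere, while Adipoq, Plin1 and Fabp4 did not pass the filter. Of 39 Hox genes, which record position along the body, 17 were tested and Hoxb6, Hoxb8 and Hoxb13 stood above both lines at 1.08 to 3.12 FPKM. That is 17.6% of the Hox genes tested, beside 9.81% over all genes tested. The Hoxb13 call was lost when NMuMG replicate 1, NMuMG replicate 4 or ES replicate 4 was left out, and with quantile normalization.

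The genes below both lines formed the opposite set, and 166 of the 349 were under 1 FPKM in every NMuMG replicate. In the others NMuMG was lower and not silent. Rpl39l, a paralog of a ribosomal protein best known from male germ cells, had 0, 0, 0.0566 and 0.04998 FPKM in NMuMG, against 138, 64.0 and 46.7 in ES and 181, 239.9 and 189 in NIH3T3, and the most negative contrast of all, -6.91 ± 0.25 (limma, adjusted p = 1.2e-08). Emb, or embigin, an immunoglobulin-family partner of lactate transporters, had 0.0336, 0.0149, 0.0278 and 0.0613 FPKM in NMuMG, against 52.4, 40.9 and 18.2 in ES and 60.4, 114 and 346 in NIH3T3. Ldhb, a lactate dehydrogenase subunit, had 1.54, 0.0667, 0.808 and 0.110 FPKM in NMuMG, against 50.8, 96.2 and 201 in ES and 48.8, 29.2 and 39.7 in NIH3T3. Adam23, a cell-surface protein of the brain that binds integrins, had 0.577, 0.0503, 0.793 and 0.0554 FPKM in NMuMG, against 20.6, 43.3 and 42.6 in ES and 30.9, 35.3 and 108 in NIH3T3. The groups did not overlap in these 4 genes. Several genes of this set are imprinted, that is, read from 1 parental copy. In a list of 41 drawn up after the values were seen, 31 were tested, 7 stood below both lines (22.6%, beside 2.83% over all genes tested) and 3 above (9.68%, beside 9.81%) (median contrast -0.85). Grb10, an adaptor that damps insulin receptor signalling, had 0.169, 0.0475, 0.171 and 0.0485 FPKM in NMuMG, against 31.2, 109 and 76.1 in ES and 104, 114 and 99.99 in NIH3T3 (contrast -6.23 ± 0.28, limma, adjusted p = 4.8e-08). The amino acid carrier Slc38a4 had 0.0653, 0.0387, 0.0180 and 0 FPKM in NMuMG, against 43.1, 63.2 and 34.5 in ES and 48.8, 47.9 and 67.6 in NIH3T3. On chromosome 12 the noncoding RNA genes Meg3, Rian and Mirg formed a run of neighbouring tested genes below both lines, Rian with 0, 0.0214, 0.0199 and 0 FPKM in NMuMG, against 47.9, 46.4 and 24.7 in ES and 13.6, 29.4 and 87.5 in NIH3T3. All 3 entries share their locus with others. Dio3, the thyroid hormone deiodinase gene of the same imprinted cluster, stood above both lines, with 49.5, 42.7, 59.6 and 17.6 FPKM in NMuMG, against 0.524, 0.141 and 0.818 in ES and 0.0184, 0.00598 and 0.0120 in NIH3T3.

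Proteins of the secretory pathway that handle collagen were also in this set, in another list drawn up after the values were seen. Of 22 genes, all tested (median contrast -0.66), 4 stood below both lines and 1 above. The shares were 18.2% below, beside 2.83% over all genes tested, and 4.55% above, beside 9.81%. Rcn3, a calcium-binding chaperone of the endoplasmic reticulum, had 0.0326, 0, 0.0810 and 0.0953 FPKM in NMuMG, against 20.3, 24.0 and 11.5 in ES and 189, 270.2 and 491 in NIH3T3. Fkbp10, a prolyl isomerase that folds procollagen, was listed at 0 in all 4 NMuMG replicates, with 8.92, 17.4 and 10.1 FPKM in ES and 54.5, 86.9 and 83.7 in NIH3T3, and its entry shares its locus with another. Fkbp11 and Rcn1 had contrasts of -3.93 ± 0.18 and -4.42 ± 0.31. On the X chromosome, 24 of 396 genes tested (6.06%) stood below both lines, beside 2.83% over all chromosomes. Xist, the RNA that coats the inactive X, had 33.8, 36.2, 29.4 and 32.8 FPKM in NMuMG, against 0.138, 0.221 and 0.173 in ES and 0.00448, 0.00168 and 0.00785 in NIH3T3, so Xist also differed with the line, and its part in these X-linked differences was not tested. The Xist entry shares its locus with another. Of the 24, 7 lie in the Armcx, Bex and Tceal region, a list also drawn up after the values were seen, where 17 of 21 genes were tested (median contrast -1.96). Armcx2, a member of the armadillo-repeat family of that region, had 0.0833, 0.0212, 0.0885 and 0.0347 FPKM in NMuMG, against 12.8, 15.4 and 12.03 in ES and 48.6, 26.6 and 33.6 in NIH3T3. Bhlhb9 and Arxes2 there had contrasts of -3.95 ± 0.14 and -4.07 ± 0.13. Armcx1 was the exception within the line, with 7.97, 0.369, 4.23 and 0.530 FPKM in NMuMG replicates 1 to 4, lower in both reporter replicates, and it lost its call with the library series as a term and without NIH3T3 replicate 3.

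One stretch of chromosome 5 held the densest group of genes above both lines. Between Cdk6, whose start lies at 3344312 in mm10, and Dmtf1, 30 genes were tested, 23 stood above both lines and 0 below, and 28 had a positive contrast. The median contrast was 2.63, with 2.94 against ES and 2.41 against NIH3T3. The next 30 tested genes after Dmtf1 had 5 above both lines, 1 below and a median of -0.25. Over all genes tested, 9.81% stood above both lines and 2.83% below. Over 11959 windows of 20 neighbouring tested genes, the highest median was 3.54, with 15 of 20 genes above both lines. That window began inside the stretch, at A330021E22Rik, and ran past Dmtf1 to Sema3c, ending at 17730267. It is therefore not a value of the stretch alone. The highest away from this part of chromosome 5, 1.79, was the S100 and Sprr region of chromosome 3, with 13 of 20 genes above both lines. The lowest, -1.76, was in the X region described above. The stretch was picked from these values, so they describe it and do not test it.

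Genes of unrelated roles were high along it. Cdk6, a kinase that drives entry into the cell cycle, had 40.6, 58.6, 67.4 and 81.4 FPKM in NMuMG, against 6.49, 8.13 and 5.18 in ES and 5.20, 3.17 and 2.29 in NIH3T3. Akap9, a scaffold of the centrosome and Golgi, had 50.4, 59.4, 37.2 and 30.2 FPKM in NMuMG, against 3.61, 4.17 and 2.68 in ES and 3.86, 3.51 and 3.94 in NIH3T3. Krit1, a protein of vessel junctions, had 29.5, 31.8, 29.4 and 30.3 FPKM in NMuMG, against 4.99, 6.08 and 8.19 in ES and 5.45, 4.74 and 5.63 in NIH3T3. The groups did not overlap in these 3 genes. The STEAP family members Steap1 and Steap2, the calcium-binding Sri and the drug transporter Abcb1a followed. Sri had 193, 180.5, 214 and 237 FPKM in NMuMG, against 10.4, 9.64 and 13.1 in ES and 28.1, 24.8 and 34.1 in NIH3T3. Abcb1a, a P-glycoprotein gene whose near copy Abcb1b is next to it, had 37.1, 55.8, 53.8 and 52.7 FPKM in NMuMG, against 4.55, 1.53 and 3.15 in ES and 0.637, 0.454 and 0.268 in NIH3T3. Crot, a carnitine acyltransferase of peroxisomes, had 497, 493, 232 and 286 FPKM in NMuMG, against 11.5, 10.1 and 8.01 in ES and 13.6, 11.5 and 21.6 in NIH3T3. The 7 exceptions were Rbm48, Cyp51, Fzd1, Cdk14, Adam22, Dbf4 and Dmtf1. Fzd1, a Wnt receptor, was 4.33 above ES but did not exceed NIH3T3 (-0.70). Cdk14, a cyclin-dependent kinase, was at most 2.27 FPKM in NMuMG, against 21.8, 18.0 and 38.1 in NIH3T3. The count above both lines was 21 with the library series as a term, 22 to 23 when 1 replicate was left out, and 12 within library series 2. DNA copy number was not measured.

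**Figure D5:**
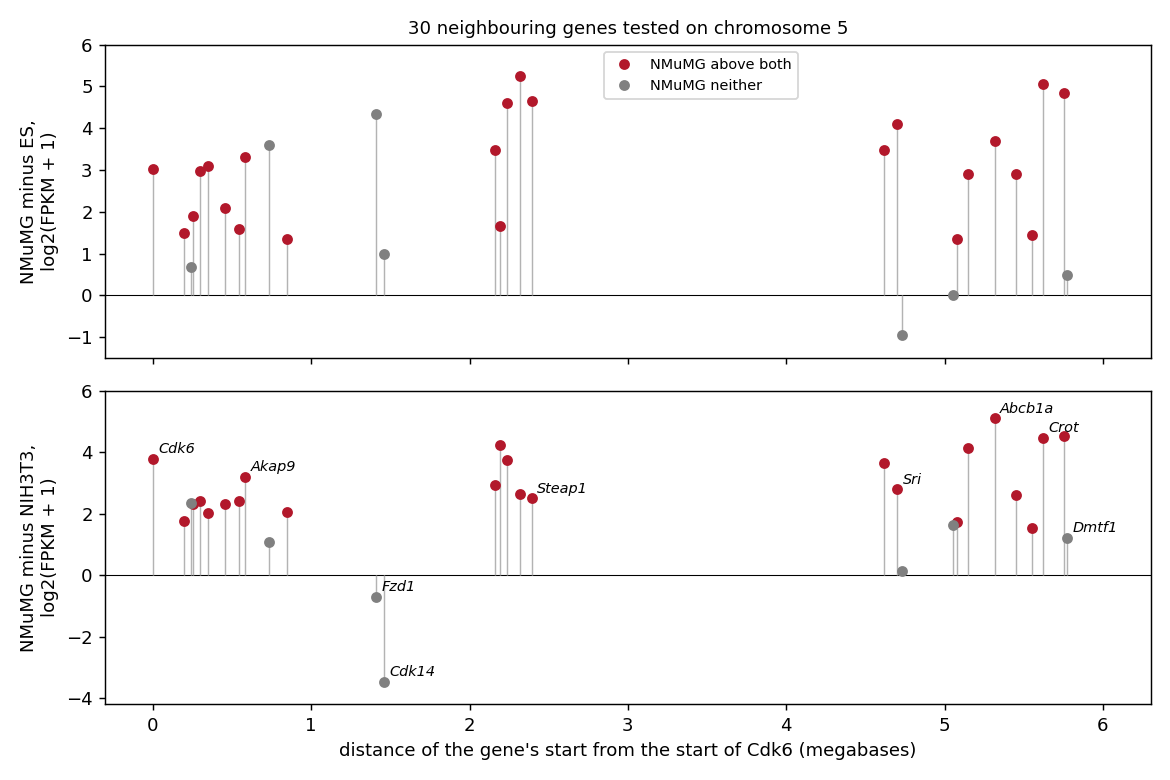
Difference of NMuMG from ES (top) and from NIH3T3 (bottom), in log2(FPKM + 1), for 30 neighbouring tested genes on chromosome 5, placed by the distance of their start from that of Cdk6 in megabases. Red points, 23 genes, stood above both lines; Fzd1 and Cdk14 lie below 0 against NIH3T3.

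Parental and reporter NMuMG cultures differed by 2-fold without overlap in some of these genes, more often downward in the reporter. Among all 12348 genes tested, 47 were higher by that measure in the reporter replicates (0.381%) and 204 lower (1.65%). Among the 1211 genes above both lines 16 were higher (1.32%) and 24 lower (1.98%). Among the 349 genes below both lines 0 were higher and 33 lower (9.46%). Fscn1, an actin-bundling protein, had 5.37, 0.132, 4.58 and 0.144 FPKM in NMuMG replicates 1 to 4, against 143, 159 and 99.5 in ES and 102, 177 and 179 in NIH3T3, so that replicates 2 and 4, the reporter cultures, were nearly without it. Igfbp3 ran the other way with 11.4, 32.2, 17.8 and 48.7 FPKM in NMuMG replicates 1 to 4. With 2 replicates a side these differences were described and not tested. Within parental cultures, with 1 ES and 1 NIH3T3 replicate, 380 genes stood above both lines and 129 below.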

How the data were processed

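Total RNA from 3 mouse cell lines was extracted on RNeasy columns, made into NEBNext Ultra libraries and read on a HiSeq2500, per the labels. Base calls were made with bcl2fastq 1.8.4, reads were aligned to mm10 with TopHat and genes quantified with Cufflinks, per the submitters' processing notes; versions of the last 2 tools are not given in the sources used here. The deposited tables, 1 per library, hold FPKM for 23849 entries, as the authors made them with no further scaling; strand use in counting is not given, so overlapping genes may share reads. Read counts are unknown.

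FPKM of entries with the same symbol were summed (23355 symbols, of which 3 with failed values were left out). The symbols Marc2 and March2, exchanged in 1 table, were also left out. Tests ran on log2(FPKM + 1) with limma 3.58.1 (R 4.3.3; intensity trend, 2-sided, Benjamini-Hochberg over all genes tested), in 1 fit over 10 replicates, for genes that reached 1 FPKM in 3 or more of them; values on this scale understate changes of low genes. The unit of replication is the culture, and nothing in the labels says how separate the cultures were, so p-values measure the spread between these libraries. Named genes are the 4 markers, the 12 largest contrasts in each direction without overlap, the 8 most abundant genes above both lines, up to 4 genes per list and direction, and 5 BMP receptors. Other list members, genes of the chromosome 5 stretch and examples of reporter differences were named after their values were seen. The members and lists were chosen with earlier results of these data known. On simulated data for this contrast with 12348 genes, 96 of 100 genes changed by 3 (log2) were recovered, and 88 of 100 changed by 1.5. For calls against both lines 94 and 69 were recovered. The changed genes were drawn only from those with a mean log2(FPKM + 1) above 4, with normal noise. Recovery of lower genes was therefore not measured. Alternatives were other pseudocounts, filters, scalings, run choices, the library series as a term, subsets of cultures and leaving out each replicate. Replicates in number runs 1 and 2 of the table names deviated together between NMuMG and ES (correlation 0.457 over genes), with only 2 such series in common. Promoters are RefSeq sequences on GRCm38.p6, matched by symbol.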

Additional observations from a re-analysis of the deposited data

Results flagged for a closer look

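Among the 114 named genes, 5 had an NMuMG replicate standing apart from the other 3 by Dixon's ratio of gap to range; chance alone gives about 1 in 20 groups. Tmem176b was highest in NMuMG replicate 1, at 876.8 FPKM. Egfr was highest in replicate 3, at 21.5 FPKM, and Sfrp2 there too, at 0.01871 FPKM, its only value above 0. Anxa3 was highest in replicate 4, at 680.0 FPKM. Serpinb9b, a serine protease inhibitor, was lowest in replicate 4, at 23.76 FPKM. None of these replicates changed the gene's call against both lines when it was left out.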

How the results depend on the processing

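Of 2602 contrasts of the 114 named genes under the alternatives, 2571 kept their direction and their side of the thresholds, 29 were no longer called, 1 became called and 1 turned its sign. That one, Bmpr1a, was not called in any case and was -0.047 with quantile normalization; Acvr2b became called there at -1.10. The count of genes below both lines was 538 with a pseudocount of 0.1 (341 shared with the 349). Leaving out 1 replicate gave 2171 to 2336 genes with a higher contrast, 1249 to 1818 with a lower one, 1122 to 1252 above both lines and 305 to 531 below both, the highest without NMuMG replicate 3 (339 shared with the 349). Within library series 2, which leaves 1 ES and 1 NIH3T3 replicate assumed to vary like the NMuMG pair, the 4 counts were 1074 higher, 290 lower, 335 above both and 93 below both. Within parental cultures, with the same limit, they were 1146 higher, 374 lower, 380 above both and 129 below both. A fold of at least 4 left 863 higher, 506 lower, 505 above both and 112 below both. With the replicate block, the library series as a term, the counts were 2179, 1592, 1001 and 289; NIH3T3 shares 1 series with NMuMG. The share of contrast calls that were higher was 58.1%, against 49.1% with quantile normalization, which moved the median of all genes by -0.161 (1038 above both, 460 below), 78.7% within library series 2 and 75.4% within parental cultures. Of 212 genes above or below both lines among those named, listed or in the chromosome 5 stretch, 19 lost that call when a replicate was left out and 28 under another setting with all 3 lines replicated, while 91 lost it within library series 2 and 85 within parental cultures; beyond the values named, the cause was not tested. FPKM tables give no read depth, so values near 0 cannot be told from 0.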
